A study of Mus musculus with 2 samples.

Results

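The enzymes that turn tryptophan into nicotinamide adenine dinucleotide (NAD) were examined in whole-kidney messenger RNA of mice put through a model of acute kidney injury (AKI). The group was chosen by name, with earlier results of these data known. It holds 10 genes: *Afmid*, *Kmo*, *Kynu*, *Haao* and *Qprt* of the de novo route, the branch enzymes *Aadat* and *Acmsd*, and *Nampt*, *Naprt* and *Nadsyn1* of salvage and the last step. All 10 had a row among the 19829 genes of the table. The comparison was between 1 library named WT+AKI, from a wild-type kidney, and 1 library named TG+AKI, from a mouse with proximal tubule-specific overexpression of *Inmt*, the indolethylamine N-methyltransferase gene. It asked which kidney transcripts other than *Inmt* differ between the genotypes after the procedure described below. The methods describe both as 14-week-old C57BL/6 mice that had received intraperitoneal voclosporin, a calcineurin inhibitor, each day (30 mg/kg, 2 weeks, begun at 8 weeks of age and ended at 10), and then bilateral ischemia of the kidneys for 30 min. The time of kidney collection is given as 24 h for these groups and as 48 h for the injury models in general. The paper reports that the transgenic mice were protected, with blood urea nitrogen and creatinine comparable to sham controls. Genotype and degree of injury therefore differ together between the libraries and cannot be told apart here. The sample labels give no age, and their treatment field says that there was none, which differs from the voclosporin and ischemia of the methods, and the title of the transgenic sample speaks of a conditional knockout beside the transgene. The promoter that drives the transgene was not given in the sources used here.

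The de novo route opens the indole ring of tryptophan and passes through kynurenine, hydroxykynurenine and hydroxyanthranilate to an unstable intermediate, aminocarboxymuconate semialdehyde (ACMS). ACMS closes on its own to quinolinate, from which QPRT makes the first mononucleotide of the route. ACMSD competes for ACMS and sends its carbon to glutaryl-CoA, and AADAT draws kynurenine off to kynurenic acid. NAMPT recycles nicotinamide, NAPRT uses nicotinic acid, and NADSYN1 amidates the last intermediate of the de novo and nicotinic acid routes. Liver and proximal tubule are the tissues best known for the complete de novo route.

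Each value below is the deposited normalized value, which equals reads per 1000000 of a scaled library. The wild-type library held 38542764 reads, each worth 0.0236, and the transgenic one 36427421, each worth 0.0302. With 1 library per group no spread between mice could be measured. The 95% intervals come from the reads (exact Clopper-Pearson for a ratio, exact Poisson for a level) and cover counting error only. *Inmt* itself had a value of 10.4 in WT+AKI against 403 in TG+AKI, the direction the transgenic label calls for. The proximal tubule markers *Lrp2* (644 and 2754) and *Slc34a1* (764 and 5397) were abundant in both libraries. Bulk RNA cannot tell fewer cells of a type from less RNA per cell.

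Start regions of 3 of the enzymes are shown first. They are the 250 bases before the RefSeq start site (GRCm38.p6, sense strand, 5′ to 3′) of *Aadat* and *Afmid*, which lay among the 4 largest ratios upward, and of *Nampt*, the gene with the largest ratio downward. *Kynu* and *Naprt* had no entry. The RefSeq start of *Nampt* lies inside the gene span given below, which is that of GENCODE M21, and the same is true of *Aadat*, *Kmo*, *Haao* and *Qprt*. Capitals mark a match to a motif searched on both strands: an HNF4 site (CAAAGTCC), an estrogen-related receptor site (AAGGTCA), an AP-1 site (TGANTCA) and an NF-κB site (GGG, any 3 bases, then TTCC).
*Aadat*, chr8:60505874-60506123, plus strand: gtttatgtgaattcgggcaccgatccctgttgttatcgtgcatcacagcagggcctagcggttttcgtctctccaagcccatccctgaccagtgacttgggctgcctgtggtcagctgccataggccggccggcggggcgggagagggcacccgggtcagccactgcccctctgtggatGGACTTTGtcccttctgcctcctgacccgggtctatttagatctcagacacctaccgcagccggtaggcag
*Afmid*, chr11:117825669-117825918, plus strand: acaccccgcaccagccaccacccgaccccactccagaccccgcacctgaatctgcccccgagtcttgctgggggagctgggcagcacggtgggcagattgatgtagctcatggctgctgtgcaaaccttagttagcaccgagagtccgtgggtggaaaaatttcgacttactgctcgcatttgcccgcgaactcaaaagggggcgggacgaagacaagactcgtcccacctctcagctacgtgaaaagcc
*Nampt*, chr12:32820085-32820334, plus strand: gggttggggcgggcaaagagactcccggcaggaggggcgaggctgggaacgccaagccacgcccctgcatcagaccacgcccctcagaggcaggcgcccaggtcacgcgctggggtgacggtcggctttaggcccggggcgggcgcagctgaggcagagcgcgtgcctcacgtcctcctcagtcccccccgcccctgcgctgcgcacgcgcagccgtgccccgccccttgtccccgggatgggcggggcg

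Of the 8 enzymes with a start region, *Aadat* held the HNF4 letters, 71 bases before its start site. Among all 32851 start regions of the same length, 1.20% held the HNF4 letters. None of the 8 held the estrogen-related receptor, AP-1 or NF-κB letters, which occurred in 4.08%, 6.75% and 4.65% of all start regions. The regions differed in base composition. The *Kmo* region had 42.8% GC and 5 CG dinucleotides. The *Nampt* region had 75.6% GC and 27 CG dinucleotides, and the *Nadsyn1* region 66.0% and 23, against a median of 52.4% GC and 6 over all regions. *Kmo*, with low GC at the start, was higher in TG+AKI, and so was *Afmid* with 59.6% GC.

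Of the 10 enzymes 9 were higher in the transgenic kidney and *Nampt* was lower. On the log2(value + 1) scale 7 of the 10 were at least 2-fold higher, while 5.74% of all 10294 genes compared were called higher by that rule. No member was called lower, against 7.12% of all genes. The counting interval of the ratio lay above 1 for all 9 enzymes that were higher and below 1 for *Nampt*, but so it did for 41.8% and 39.5% of all genes, and an exact binomial test on the reads called 80.5% of them, and such a call compares 2 libraries rather than 2 conditions. A gene was compared when its value reached 10 in at least 1 library, which all 10 members did, *Kynu* through TG+AKI alone. The median log2 difference was 1.42 over the members and 0.01 over all compared genes. The split of calls over all genes depended on the scaling of the libraries: 44.6% of all genes called were higher in TG+AKI as deposited, 23.9% with equal column totals, 33.4% with the median ratio of genes of at least 100 set to 1, and 58.4% with that of a housekeeping list set to 1. These scalings shifted the median of all genes by -0.27, -0.14 and 0.15, and the members with it. Under each of them 9 members stayed higher and *Nampt* lower, since each shift was smaller than the difference of any member. The enzyme closest to the 2-fold limit, *Qprt*, dropped under it with the first 2 of these scalings.

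**Figure D1:**
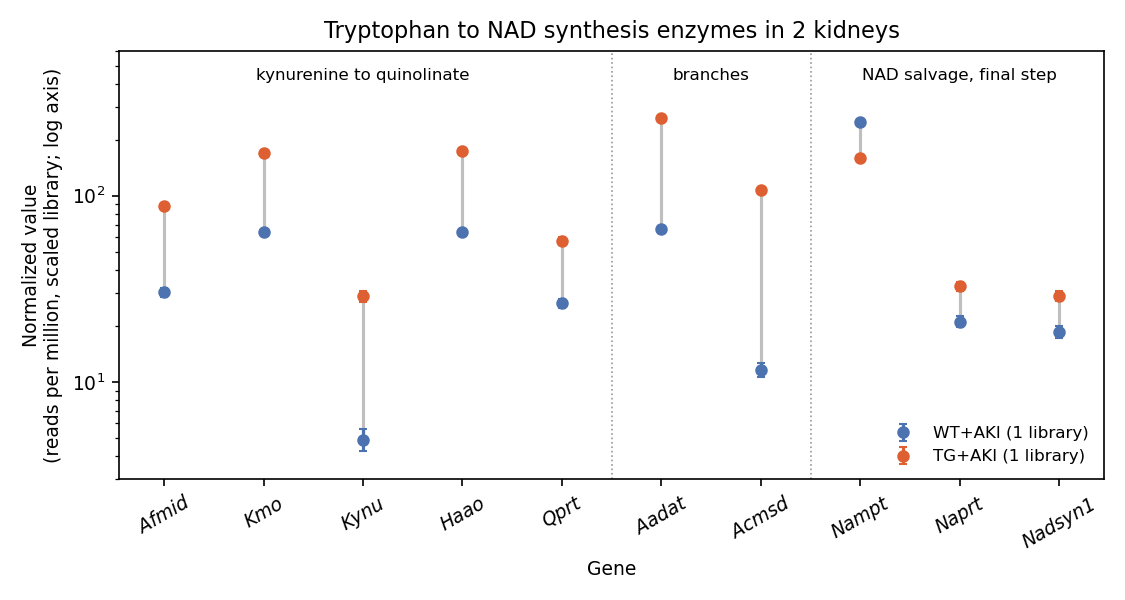
Normalized value of each enzyme (log axis) in the WT+AKI and the TG+AKI library, with 95% Poisson intervals from the reads. Every enzyme lies higher in TG+AKI except *Nampt*, at 247 in WT+AKI against 159 in TG+AKI.

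*Afmid* (gene ID 71562, chr11:117825924-117839908, plus strand) encodes the formamidase that releases kynurenine. Its value was 30.4 in WT+AKI against 88.6 in TG+AKI, a ratio of 2.92 (95% interval 2.73 to 3.12). Of the 100-base words of its longest transcript, 59.3% also occur in *Gm20708*, an annotated gene on the same strand, so its level is uncertain. *Kmo* (gene ID 98256, chr1:175620381-175662116, plus strand), the hydroxylase that commits kynurenine to the NAD route, had values of 63.5 and 170.0, a ratio of 2.67 (2.55 to 2.80). *Haao* (gene ID 107766, chr17:83831156-83847963, minus strand), the dioxygenase that forms ACMS, had values of 64.0 and 174, a ratio of 2.72 (2.59 to 2.84). The intervals of these 3 ratios overlapped in pairs, so that *Kmo* and *Haao* could not be told apart by counting and *Afmid* overlapped both.

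*Kynu* and *Qprt* bounded this group. *Kynu* (gene ID 70789, chr2:43555329-43682715, plus strand) encodes kynureninase, which cuts hydroxykynurenine to hydroxyanthranilate. It was the scarcest enzyme in WT+AKI, with a value of 4.91 from 208 reads, and it was listed at 28.8 from 955 reads in TG+AKI, a ratio of 5.88 (5.05 to 6.86). *Qprt* (gene ID 67375, chr7:127107114-127122226, minus strand), the only enzyme that takes quinolinate into NAD, had values of 26.5 and 57.4. Its ratio of 2.17 (2.01 to 2.34) was the smallest of the 5 enzymes from *Afmid* to *Qprt*. All 5 de novo enzymes were higher, and their summed value was 189 in WT+AKI against 519 in TG+AKI.

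Of the branch enzymes, *Acmsd* stood further from equality than every de novo enzyme, and *Aadat* further than all of them but *Kynu*. *Acmsd* (gene ID 266645, chr1:127729413-127767978, plus strand) had a value of 11.7 from 494 reads in WT+AKI against 108 from 3571 reads in TG+AKI, a ratio of 9.25 (8.42 to 10.2). Only 30 of the 10294 compared genes had a larger log2 difference upward. *Aadat* (gene ID 23923, chr8:60505932-60545677, plus strand), also known as kynurenine aminotransferase II, had values of 66.4 and 262, a ratio of 3.94 (3.78 to 4.12), and 117 genes had a larger difference. For *Kynu* that number was 64, for *Afmid* 223, for *Haao* 265, for *Kmo* 277 and for *Qprt* 509. The annotation places a gene on the opposite strand over exons of *Acmsd*, *2900009J06Rik*, which was listed at 0.118 and 0.272.

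The salvage enzymes behaved differently from each other. *Nampt* (gene ID 59027, chr12:32819545-32853349, plus strand), the rate-limiting enzyme of nicotinamide recycling, had a value of 247 from 10493 reads in WT+AKI against 159 from 5277 reads in TG+AKI. It was 1.55-fold lower in the transgenic kidney (1.5 to 1.61), and 1322 of the compared genes had a larger difference downward. *Naprt* (gene ID 223646, chr15:75890956-75894481, minus strand) had values of 21.1 and 32.6, a ratio of 1.55 (1.41 to 1.69). *Nadsyn1* (gene ID 78914, chr7:143795584-143822849, minus strand) had values of 18.5 and 29.1, a ratio of 1.57 (1.43 to 1.73). *Naprt* and *Nadsyn1* act on the same nicotinic acid route and their ratios overlapped. *Naprt* shares 9.89% of its 100-base words with *Eef1d*, which lies on the same strand and had near-equal values of 64.7 and 64.7. None of the 3 reached 2-fold in either direction. Because *Nampt* outweighed the others, the summed value of these 3 enzymes was 287 in WT+AKI against 221 in TG+AKI.

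**Figure D2:**
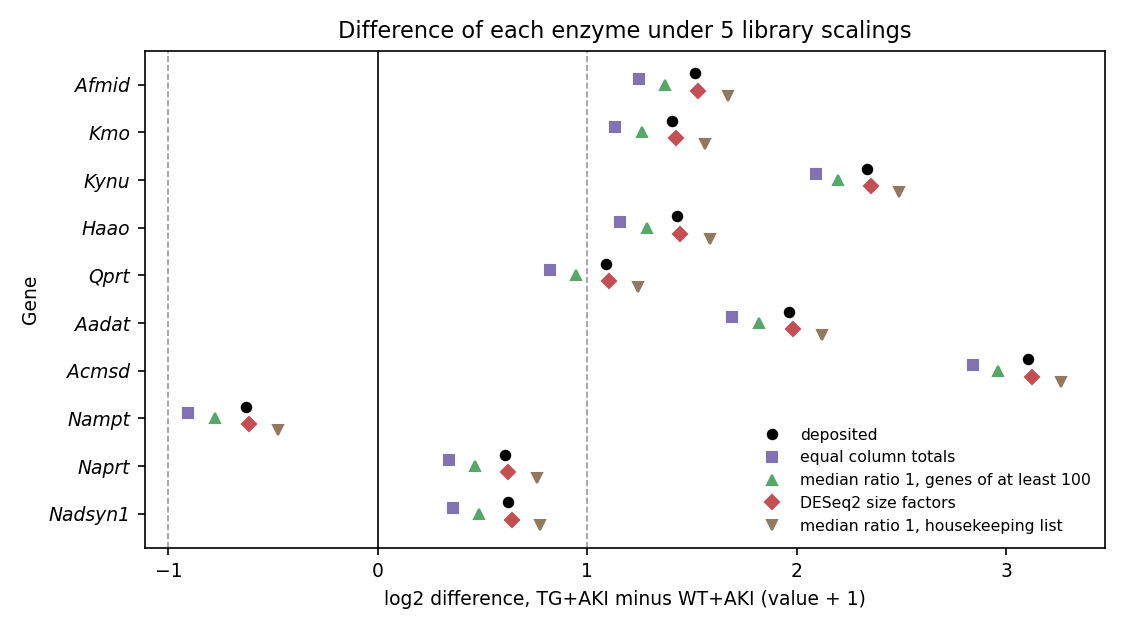
log2 difference of each enzyme (TG+AKI minus WT+AKI, value + 1) under 5 scalings of the libraries; dashed lines mark 2-fold. *Nampt* lies to the left of 0 and the other 9 to the right of it under each scaling, and *Qprt* crosses the 2-fold line.

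Levels of different enzymes were compared per kilobase of the longest annotated transcript. In WT+AKI *Nampt* led with 54.7 per kilobase, followed by *Aadat* with 33.7, *Haao* with 20.5 and *Kmo* with 17.3. *Afmid* (13.1) and *Qprt* (12.9) could not be told apart by counting, and *Naprt* (11.1), *Nadsyn1* (7.02), *Acmsd* (4.29) and *Kynu* (1.77) came last. The order was another one in TG+AKI. *Aadat* led there with 133 per kilobase, ahead of *Haao* (55.8) and *Kmo* (46.3). *Acmsd* had moved from place 9 to place 4 with 39.7 per kilobase, its interval overlapping that of *Afmid* (38.1), and *Nampt* was at place 6 with 35.2. *Qprt* (28.0), *Naprt* (17.2), *Nadsyn1* (11.01) and *Kynu* (10.4) followed, the last pair with overlapping intervals. The longest *Haao* transcript is not protein coding. On its longest protein-coding transcript *Haao* had 46.4 and 126 per kilobase, which put it before *Aadat* in WT+AKI and just behind it in TG+AKI. With coding length in place of transcript length, *Nampt* still led in WT+AKI and *Kynu* was still last, whereas in TG+AKI *Haao* led (203 per coding kilobase) with *Aadat* next to it (202), and *Acmsd* moved from place 8 to place 5.

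Ratios between enzymes within a library do not depend on how the libraries were scaled, so they were set side by side for 9 pairs. At the ACMS branch, *Acmsd* had 0.332 times the reads per kilobase of *Qprt* in WT+AKI (95% interval 0.298 to 0.370) and 1.42 times in TG+AKI (1.34 to 1.5). The ratio was 4.27 times higher in the transgenic kidney (exact conditional interval of the odds ratio 3.78 to 4.82). *Acmsd* thus stood below *Qprt* in the wild-type kidney and above it in the transgenic kidney, on coding length as well. *Acmsd* stayed below *Haao*, the enzyme that makes its substrate, in both libraries. Their ratio was 0.209 per kilobase in WT+AKI against 0.712 in TG+AKI, 3.41 times higher (3.07 to 3.79).

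At the kynurenine branch both competitors were higher, *Aadat* more so than *Kmo*. The *Kmo* to *Aadat* ratio was 0.514 in WT+AKI against 0.349 in TG+AKI, 1.47-fold lower (1.38 to 1.57). *Kynu*, which also acts on kynurenine, stayed below *Aadat* and *Kmo* per kilobase in both libraries. Its ratio to *Aadat* was 1.49 times higher in TG+AKI (1.27 to 1.75) and its ratio to *Kmo* 2.2 times higher (1.88 to 2.58). *Haao* exceeded *Kynu* 11.6 times per kilobase in WT+AKI against 5.37 times in TG+AKI, a 2.16-fold lower ratio (1.85 to 2.54). These levels rest on the *Haao* transcript that is not protein coding, and per coding kilobase they were 21.2 and 9.8, with the same change between the libraries.

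*Nampt* was set against *Qprt* and *Naprt*. *Nampt* exceeded *Qprt* 4.23 times per kilobase in WT+AKI (3.98 to 4.51) and 1.26 times in TG+AKI (1.19 to 1.33), a ratio 3.37-fold lower in the transgenic kidney (3.10 to 3.65). The *Nampt* to *Naprt* ratio was 4.92 per kilobase in WT+AKI against 2.05 in TG+AKI, 2.40-fold lower (2.18 to 2.64). The *Nadsyn1* to *Naprt* ratio was 0.631 in WT+AKI against 0.640 in TG+AKI, and its change of 1.01 had an interval of 0.889 to 1.16. That was the only one of the 9 changes whose interval included 1. Such intervals cover counting error only, and for single genes they lay above 1 in 41.8% and below 1 in 39.5% of all genes. No such share was computed for pairs of other genes.

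**Figure D3:**
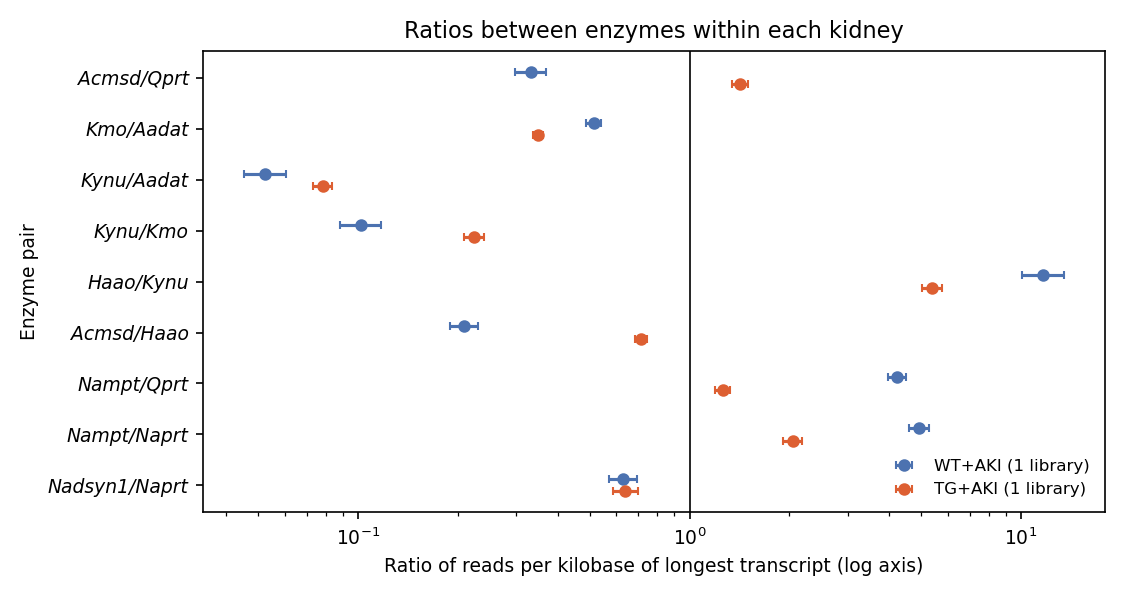
Ratio of reads per kilobase of longest transcript between the 2 named enzymes (log axis) within the WT+AKI and the TG+AKI library, with 95% exact intervals. *Acmsd*/*Qprt* lies below 1 in WT+AKI (0.332) and above 1 in TG+AKI (1.42), and *Nadsyn1*/*Naprt* hardly moves.

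Genes around the 10 enzymes were read from lists of the pathway. The enzymes that carry the ACMSD product to glutaryl-CoA and beyond were all at least 2-fold higher. *Aldh8a1*, the dehydrogenase next after ACMSD, had values of 147 and 410 (ratio 2.78, 2.7 to 2.87). *Dhtkd1*, a subunit of the ketoadipate dehydrogenase, had values of 33.2 and 93.3 (ratio 2.81). *Gcdh*, glutaryl-CoA dehydrogenase, had values of 223 and 455 (ratio 2.04). The kynurenine aminotransferases other than *Aadat* did not reach 2-fold: *Kyat3* had a ratio of 1.68 (1.57 to 1.79), *Got2* 1.26 (1.23 to 1.30) and *Kyat1* 1.02 (0.981 to 1.07). The difference at this step was therefore largest for *Aadat* among the 4 enzymes measured.

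Of the enzymes that open the route, *Ido2* had a row, with values of 6.11 and 13.3 from 259 and 441 reads (ratio 2.18, 1.87 to 2.55). *Tdo2*, *Ido1*, *Tph1*, *Tph2* and *Il4i1* had no row under these symbols. In the indole route that leads to the INMT substrates, *Ddc*, the aromatic amino acid decarboxylase, had values of 60.9 and 145 (ratio 2.38). *Maoa*, a monoamine oxidase, was 2.41-fold lower (2.19 to 2.64) at 43.1 and 17.9, and *Maob*, under the comparison limit at 6.16 and 2.05, was 3.0-fold lower. *Aldh2* had values of 719 and 885. Of the 5 compared genes of this list 3 were called higher, *Inmt* among them, and 1 was called lower, with a median log2 difference of 1.01. *Ido2*, which passed the limit through TG+AKI alone, sets that median by itself, and without a filter on low values, which lets *Maob* in, the median was 0.65.

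For the enzymes around the mononucleotides, every difference but that of *Nnt* was smaller than those of the de novo enzymes. Of the 6 compared genes for adenylylation, riboside kinases and NADP formation, 1 was called higher, *Nnt*, the mitochondrial transhydrogenase, at 54.6 and 149 (ratio 2.73, 2.59 to 2.86). The mitochondrial kinase *Nadk2* had values of 66.1 and 122 (ratio 1.84), and the cytosolic *Nadk* 189 and 190 (ratio 1.0, 0.969 to 1.04). *Nmnat1* (ratio 1.27), *Nmnat3* (1.26) and *Nmrk1* (1.08) lay close to 1. The median of this list was 0.31, and *Nmnat2* and *Nmrk2* had no row under these symbols.

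Uptake genes differed more. *Slc6a19*, the apical transporter of tryptophan and other neutral amino acids, had values of 116 and 521 (ratio 4.47, 4.33 to 4.61), and *Slc7a8*, a basolateral neutral amino acid exchanger, 129 and 327 (ratio 2.54). *Slc5a8*, which carries nicotinate among other monocarboxylates, had a ratio of 1.91. *Slc25a51*, the mitochondrial NAD carrier, had values of 148 and 213 (ratio 1.45, 1.4 to 1.5). *Slc22a13* had a ratio of 1.28 and *Slc3a2* of 1.15. All 6 compared genes of the uptake list were higher, 2 of them at least 2-fold, and 4 of the 7 with a row (*Slc6a19*, *Slc7a8*, *Slc5a8* and *Slc22a13*) are also among the segment markers of the proximal tubule used below. *Slc7a5*, under the limit at 5.92 and 1.60, was 3.70-fold lower (2.74 to 5.07), and *Slc12a8* had no row under this symbol.

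Enzymes that consume NAD or act on nicotinamide and nucleotide products were taken as 1 list, which also holds *Pnp*, *Pnp2* and *Nt5e*. Of 18 compared, 9 were higher and 9 lower, with a median of 0.02. The 5 genes of the list under the comparison limit all had lower values in TG+AKI. Of those compared, none was called higher and 2 were called lower, against 5.74% and 7.12% of all genes. The called ones were *Bst1*, an ecto-enzyme that splits NAD, at 23.0 and 7.79 (2.95-fold lower, 2.57 to 3.39), and *Parp14*, an ADP-ribosyltransferase of the interferon response, at 41.5 and 15.0 (2.77-fold lower, 2.50 to 3.06). *Parp3* (1.91-fold) and *Parp9* (1.69-fold) were lower too, whereas *Parp1* had a ratio of 1.15. *Sirt3*, the mitochondrial deacetylase, had values of 39.8 and 78.2 (ratio 1.97, 1.85 to 2.09), the largest upward ratio of the list. *Sirt7* had a ratio of 1.60, *Nudt12* of 1.61 and *Sirt1* of 0.804. *Cd38*, a major NAD glycohydrolase, had values of 12.7 and 9.78. *Nnmt*, which methylates nicotinamide for excretion, was listed at 2.17 and 0.846, from 92 and 28 reads (2.57-fold lower, 1.67 to 4.07). The sign of this list's median was negative with equal column totals (-0.24) and with the median ratio of genes of at least 100 set to 1 (-0.12). Without a filter on low values the median was negative too (-0.23).

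**Figure D4:**
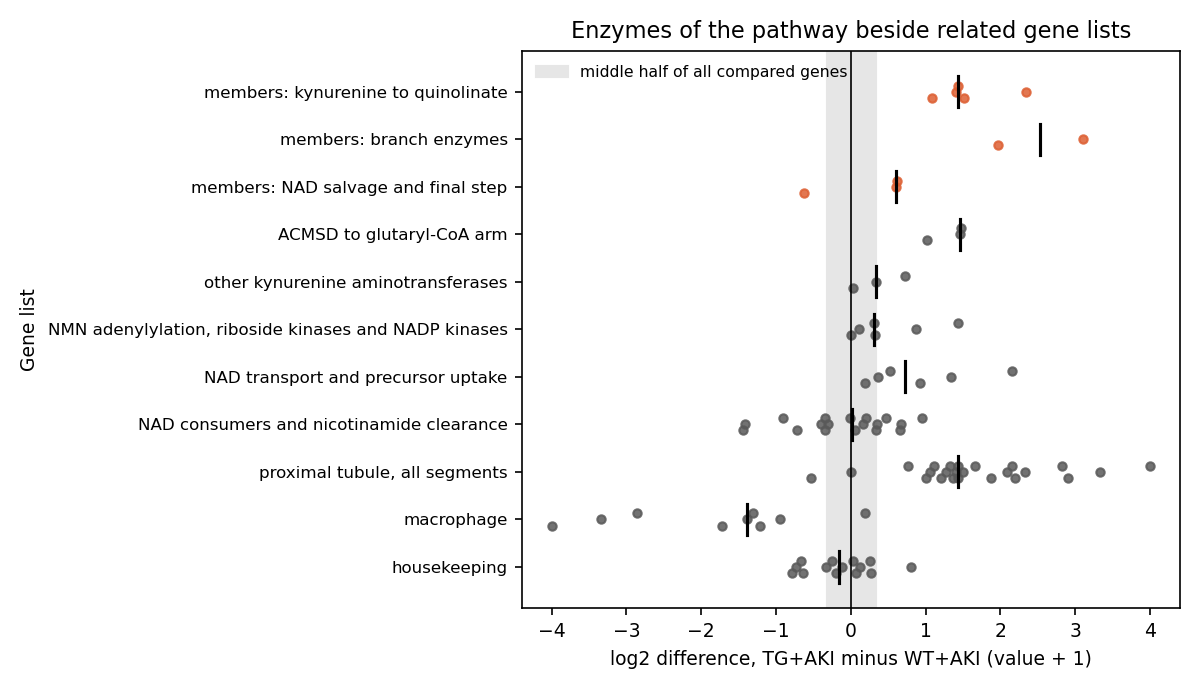
log2 difference (TG+AKI minus WT+AKI, value + 1) of the compared genes of each list, 1 point per gene, with the list median as a bar; the grey band spans the quartiles of all 10294 compared genes. The de novo enzymes (median 1.43) lie in the range of the proximal tubule markers (median 1.43), *Nampt* at -0.63 lies to the left of the band, and the list of NAD consumers and nicotinamide clearance straddles 0.

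Markers of the proximal tubule, which holds the de novo route, were mostly higher in TG+AKI as well. Of 24 compared proximal tubule markers 22 were higher and 21 at least 2-fold higher, with a median ratio of 2.7, and the summed value of all 25 listed markers was 16066 in WT+AKI against 50331 in TG+AKI. All 10 tubular injury markers were at least 2-fold lower, their sum being 13311 and 903. *Kmo* and *Haao* stood at 0.990 and 1.0 times the median proximal tubule ratio, *Afmid* at 1.08 times and *Qprt* at 0.802 times. *Acmsd* stood at 3.43 times that median, and 2 of the 25 listed markers had a higher ratio. *Kynu* stood at 2.18 times, with 4 markers above it, and *Aadat* at 1.46 times, with 8 above it. *Naprt* (0.572 times) and *Nadsyn1* (0.581 times) stood under it, and all 25 markers had a higher ratio than *Nampt*. Markers of the first segments (S1 and S2) had a median log2 difference of 2.15 over 9 genes, and those of the last segment (S3) 0.93 over 8. The 5 compared markers of thick ascending limb and distal tubule were also all higher, with a median log2 difference of 1.08. The part of tubule content in the enzyme differences was not tested.

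*Kynu*, *Kmo* and *Nampt* are also made by macrophages. Of 9 compared macrophage markers 8 were lower in TG+AKI and 7 at least 2-fold lower, with a median log2 difference of -1.39. The sum of all 13 markers was 241 in WT+AKI against 96.3 in TG+AKI. The defining genes *Adgre1* (10.9 and 4.14) and *Cd68* (37.1 and 1.39) were lower while *Csf1r* (37.5 and 43.0) was not. *Mrc1*, under the comparison limit, had values of 2.67 and 4.26. The part of macrophages in the differences of *Kynu*, *Kmo* and *Nampt* was not tested. Liver holds the route as well. Of the 11 hepatocyte markers 8 had a row, with a sum of 961 in WT+AKI against 1599 in TG+AKI, and of the 5 compared 2 were called higher and 2 lower. Their median log2 difference was -0.51. *Cyp2e1* had values of 130 and 1422, *Fga* 689 and 39.1, and *Serpina1a* 68.8 and 47.8, while *Alb* was at 0.802 and 8.27 (34 and 274 reads). *Fga* thus made up most of the sum in WT+AKI and *Cyp2e1* most of it in TG+AKI. The part of such transcripts in the enzyme differences was not tested.

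Transcripts of factors that have been tied to these genes gave no common direction. *Hnf4a*, a nuclear factor that is also among the proximal tubule markers, had values of 397 and 1072 (ratio 2.7, 2.65 to 2.75). *Ppargc1a*, a coactivator reported to raise de novo NAD enzymes, had values of 53.5 and 106 (ratio 1.99) and its partner *Esrra* 50.2 and 93.3 (ratio 1.86). *Ppara* was listed at 187 and 145, a ratio of 0.778. *Nampt* is known as a target of the clock and of inflammatory signals. *Arntl*, a clock factor, had values of 10.4 and 21.1 (ratio 2.03) and *Clock* 82.6 and 85.9 (ratio 1.04). *Stat3* was 3.27-fold lower (3.12 to 3.43), *Rela* 2.10-fold and *Nfkb1* 1.88-fold lower, and *Hif1a* 1.36-fold. Of the 12 genes of this list, not all of them named, 1 was called higher and 2 were called lower, with a median of 0.03.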

How the data were processed

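Whole-kidney mRNA libraries (TruSeq Stranded mRNA, 1 per group) were compared, grouped by the library names in the labels. Per the study's methods the authors aligned reads of about 100 bases with STAR 2.7.3a, used HTSeq to count them and DESeq2 to normalize them. The submitters' processing notes also name edgeR and the build mm10, without a role. The annotation and the use of strand in counting were not given in the sources used here, so reads of overlapping genes may be exchanged.

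The deposited signal values are gene counts that the authors divided by a library factor. Dividing a column by its lowest value gave whole reads (100% of values within 0.01). Factors of the trimmed mean of M-values (edgeR 4.0.16) on these reads were 1.10 and 0.909 and equal the deposited scaling. Genes that reached 10 in 1 library or both (424 reads in WT+AKI, 331 in TG+AKI) were compared on the log2(value + 1) scale, called at 2-fold, and ratios were given on the plain scale. A two-sided exact binomial test on the reads, with Benjamini-Hochberg adjustment, called 8291 of 10294 genes (80.5%), and it compares the libraries, not the conditions. Positions and lengths came from GENCODE M21 (GRCm38), start regions from RefSeq (GRCm38.p6), with 8 of the 10 genes matched by symbol. Some genes, a motif and a start region that were examined are not reported here. Intervals and calls were tested on simulated reads that held counting error only, so that test cannot show how they hold between mice. The members and lists, and the rule for named genes (all members, the pathway and regulator lists, and marker genes), were chosen with earlier results of these data known. Marker genes outside the rule (*Lrp2*, *Adgre1*, *Mrc1*, *Alb*) were named after their values were seen. Python 3.11.15 with numpy 2.4.6 and scipy 1.17.1 was used. The alternatives were other pseudocounts, scalings, filters, call rules and gene lengths; the binomial rule, the plain ratio and the protein-coding length were added after the data were seen.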

Additional observations from a re-analysis of the deposited data

How the results depend on the processing

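The direction of each of the 10 enzymes was the same under all 7 alternatives of pseudocount and scaling. This outcome was fixed in advance, because a pseudocount or a plain ratio cannot change a direction. The scalings shifted the median of all genes by less than the smallest enzyme difference (0.61, *Naprt*). The number of enzymes at least 2-fold higher stayed within 1.5 times of 7, and 1 enzyme (*Nampt*) was called lower under a 1.5-fold rule. The median log2 difference of the enzymes was 1.29 with a pseudocount of 10, 1.14 with equal column totals, 1.27 when genes of at least 100 were centred on a ratio of 1, and 1.57 with that of the housekeeping list set to 1. Over all genes, 372 were called higher and 408 lower with a pseudocount of 10, 359 and 1141 with equal column totals, 374 and 295 with a filter of 50, and 1438 and 1470 at 1.5-fold. Lower calls numbered 1150 without a filter and also with a filter of 1. By construction the stricter filter compares fewer genes (4369, with 7 of the enzymes). On coding length 2 of the 10 enzymes kept their place in the TG+AKI order, on the longest protein-coding transcript all 10 did.

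List medians that changed sign were those of the list of NAD consumers and nicotinamide clearance (-0.24 with equal column totals, -0.12 with genes of at least 100 centred, -0.23 without a filter, -0.15 with a filter of 1), the regulators (-0.24 and -0.11 with the same scalings, -0.18 with a filter of 50), the endothelial list (0.048 with the housekeeping scaling) and the hepatocyte list (0.24, 0.48 and 0.58 without a filter and with filters of 1 and 50). The scalings shift all genes by 1 factor, and the filters change which genes enter. No paired analysis was possible because each group had 1 library, which also leaves no replicate to leave out. Depth limits *Kynu* most among the enzymes, with 208 reads in WT+AKI.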

Other observations

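Other cell types gave the following values. Thick ascending limb and distal tubule markers were all higher in TG+AKI among the 5 compared, 3 of them at least 2-fold, with a median log2 difference of 1.08. Collecting duct markers had a median of 0.28 over 8 genes, with 1 called higher. Endothelial markers had a median of -0.11 over 8 genes and none was called in either direction. No neutrophil or lymphocyte marker reached the comparison limit. The summed value of the 4 neutrophil markers with a row was 8.26 in WT+AKI against 1.57 in TG+AKI, and that of the 9 lymphocyte markers 2.92 and 4.5. The 14 housekeeping genes had a median of -0.16, and none was called.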
